A study of Mus musculus with 8 samples.

Results

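The genes described here are the Notch receptors Notch1, Notch2, Notch3 and Notch4, the ligands Jag1 and Dll4, and the target repressors Hey1, Hey2, Heyl and Hes1. They were taken by gene symbol from the probe table of the series, in which these 10 genes of 16593 had 13 of 25697 probes. Transcripts were read on 8 arrays of the Illumina MouseRef-8 BeadChip, where the fluorescence intensity of beads carrying a probe measures its transcript. The tested RNA came from cardiomyocyte (CM)-enriched primary preparations of mouse hearts in 3 groups. Embryonic CMs (2 arrays) were from E15.5 hearts (days of embryonic development) of CD1 background. Hypertrophic adult CMs (ACMs, 3 arrays) were from CD1 mice 7 days after transverse aortic constriction (TAC), which narrows the aorta and loads the left ventricle with pressure. Normal ACMs (3 arrays) were from adult mice of CD1 background. No operation is labelled for the normal ACMs, so the operation and hypertrophy cannot be told apart, and the embryonic group differs from both adult groups in age. Whether the arrays of a group came from separate animals was not stated in the sources used here, so the p-values rest on the spread among these arrays alone, and that spread may be technical.

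Notch signalling passes between touching cells. A ligand such as Jag1 or Dll4 on one cell binds a receptor on its neighbour, proteases then cut the receptor, and its freed intracellular domain joins the DNA-binding protein RBPJ in the nucleus. There it switches on genes that include the Hey and Hes families, which encode basic helix-loop-helix repressors. In the heart the pathway is known from the endocardium, where it takes part in trabeculation and valve formation, from arterial endothelium and from vascular mural cells, and Hey2 is known as a gene of the compact ventricular myocardium.

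Of the 10 members, 7 had an entry in the RefSeq promoter table (build GRCm38.p6), which holds 250 bases before and 50 bases after each gene start. They were searched on both strands for the RBPJ heptamer, GTGGGAA, and for the GC box, whose letters are GGGCGG and which is a common motif of CpG-rich promoters. Hey2, the member with the largest difference between groups, held the heptamer 2 times, at -207 to -201 on the opposite strand and at -4 to 3 on the gene strand, counted from the first base of the gene as 1. At least 1 heptamer was found in 6.38% of all 32851 promoters in the table and at least 2 in 0.256%, and none was found in the windows of Notch1, Notch2, Notch3, Notch4, Jag1 and Dll4. The GC box was found in 35.7% of all promoters, 5 times in Notch1, 7 times in Notch2, 4 times in Notch3, 3 times in Hey2 and 2 times in Dll4, and not in the windows of Notch4 and Jag1. The promoters of Hey1, Heyl and Hes1 were not searched. A match in letters describes the sequence and shows no binding. The promoter of Hey2 is shown from 250 bases before the start to base 3 (chr10:30842781-30843033, minus strand), with the heptamers in capitals, the one on the opposite strand as its reverse complement. Beside it stand the 250 bases before the starts of Notch1 (chr2:26503823-26504072, minus strand) and Notch4 (chr17:34564045-34564294, plus strand), receptors that were also higher in embryonic CMs, with GC boxes in capitals where present.
Hey2: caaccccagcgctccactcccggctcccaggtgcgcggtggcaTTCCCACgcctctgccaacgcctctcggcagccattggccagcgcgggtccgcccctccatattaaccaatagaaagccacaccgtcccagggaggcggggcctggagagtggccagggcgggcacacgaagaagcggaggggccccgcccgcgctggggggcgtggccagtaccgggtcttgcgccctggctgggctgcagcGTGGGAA
Notch1: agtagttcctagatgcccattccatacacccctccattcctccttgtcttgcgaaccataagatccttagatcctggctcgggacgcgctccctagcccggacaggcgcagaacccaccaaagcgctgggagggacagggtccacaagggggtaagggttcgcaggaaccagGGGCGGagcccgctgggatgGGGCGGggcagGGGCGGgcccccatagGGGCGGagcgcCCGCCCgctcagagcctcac
Notch4: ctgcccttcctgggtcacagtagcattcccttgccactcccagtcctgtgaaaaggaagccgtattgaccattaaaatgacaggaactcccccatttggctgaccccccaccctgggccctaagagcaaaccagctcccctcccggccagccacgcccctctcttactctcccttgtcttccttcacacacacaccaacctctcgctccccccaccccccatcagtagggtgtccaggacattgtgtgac

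Intensities were background-corrected, quantile-normalized and put on a log2 scale, called normalized log2 intensity below. A probe was above background on an array where its detection p-value was under 0.05, and it was kept where this held on at least 2 of the 8 arrays. The brightest kept probe stood for a gene. The groups were compared by limma over the 9803 genes with a kept probe, and a difference passed the test at a Benjamini-Hochberg adjusted p under 0.05. Of the members, 9 of 10 and 11 of the 13 probes were kept. Both probes of Notch2 were below background on all 8 arrays, with intensities of 84.4 to 102.4, and no difference is given for this receptor. Dll4 was kept only through the 2 embryonic arrays, Jag1 through these and 1 hypertrophic array, and Heyl through these and 2 hypertrophic arrays, so that each had to be brighter on those arrays. Levels are compared between groups of arrays for each probe and not between probes.

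On the arrays as a whole, 51.6% of probes were above background on each embryonic array, 45.8% to 46.3% on the hypertrophic ACM arrays and 41.9% to 44.0% on the normal ACM arrays. All 11 measured cardiomyocyte markers were kept. Their summed normalized level was 134957 to 141644 in embryonic CMs, 192656 to 205082 in hypertrophic ACMs and 182684 to 198871 in normal ACMs. Of these markers, Ryr2 was not above background on 1 embryonic array and the others were above it everywhere.

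**Figure D1:**
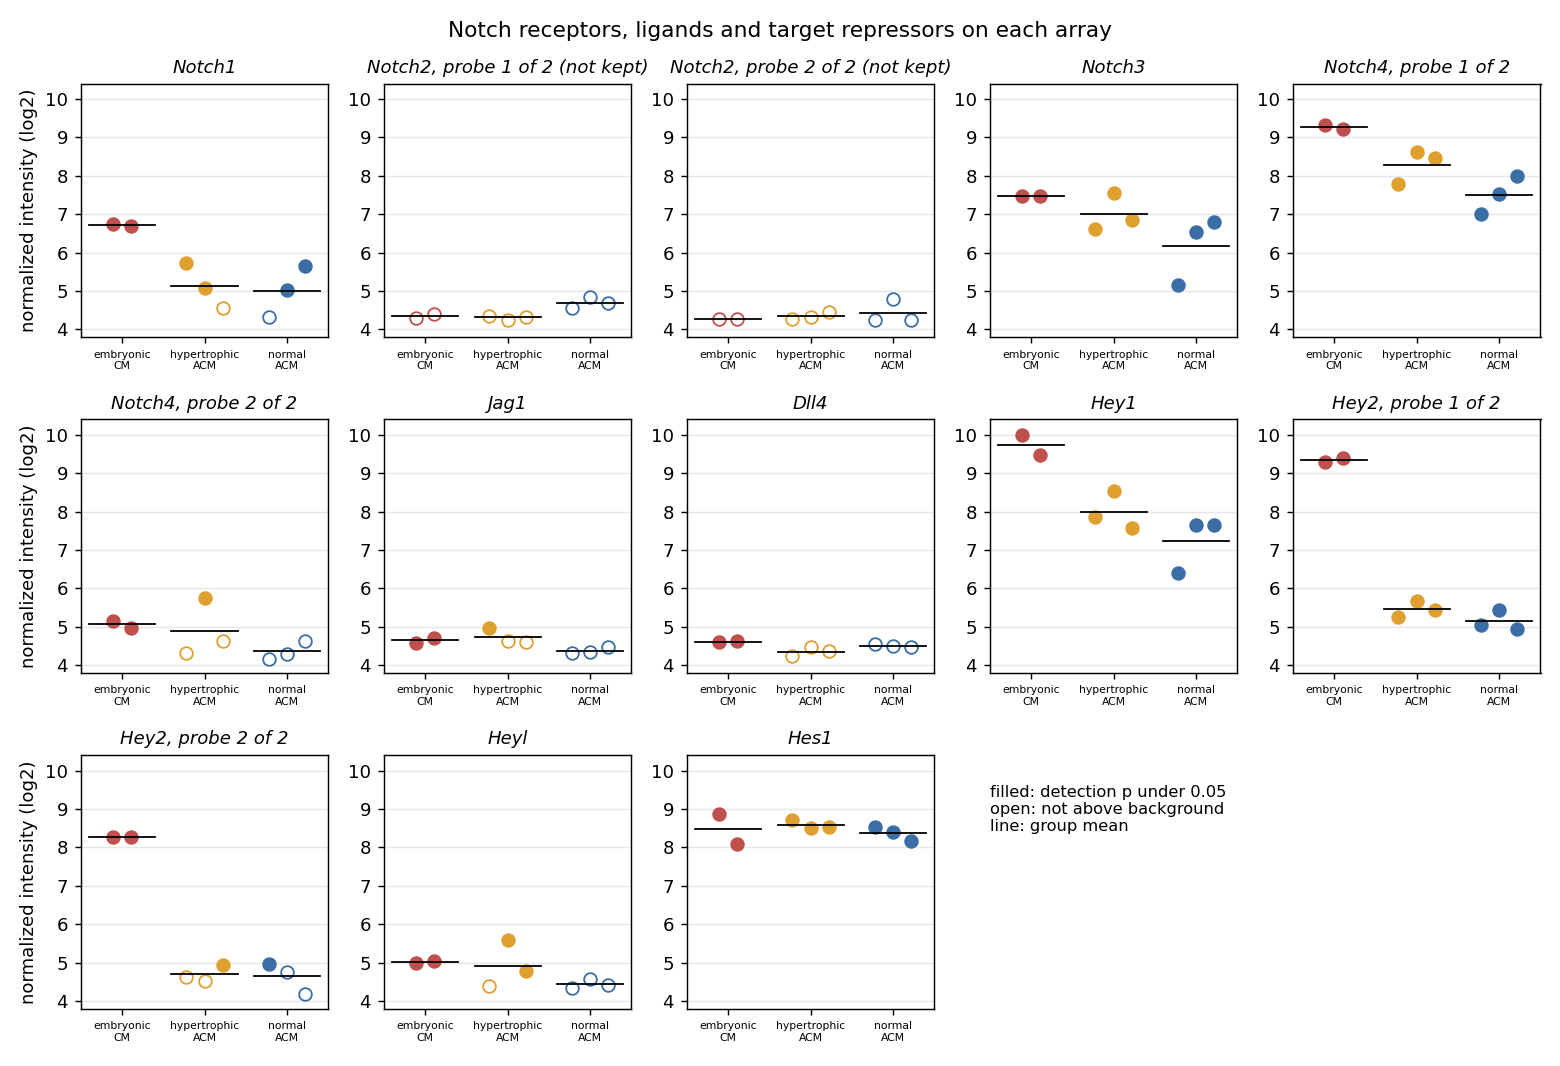
Normalized log2 intensity (vertical axis) of the 13 probes on each of the 8 arrays, by group, filled points were above background, open points were not, and lines are group means. The embryonic arrays stand apart from all 6 adult arrays for Hey2, Hey1, Notch1 and the brighter Notch4 probe, while hypertrophic and normal ACMs overlap for each of these.

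Embryonic CMs had more signal than normal ACMs for 3 of the 3 measured receptors and for 2 of the 4 target repressors. Hey2 was 18.3-fold higher, Hey1 5.67-fold, Notch4 3.39-fold, Notch1 3.26-fold and Notch3 2.48-fold. Folds are 2 to the power of the log2 difference, and their size depended on the processing, as given in the closing section. Neither ligand passed the test, nor did Heyl and Hes1. The members that passed were 5 of 9, all higher, and 26.2% of all genes tested were higher at the same threshold. The median log2 difference was 1.31 over the 9 members and 0.01 over all genes. In 8 of the 9 members, Hes1 being the exception, every embryonic array lay above every normal ACM array, which held for 35.0% of all genes tested. These counts cover the members that passed the filter on background, which favoured genes that were bright in 1 group. Dll4, Jag1 and Heyl were above background on no normal ACM array, so the filter favoured their place above normal ACMs, which adds no support. Notch2, below background on every array, is not counted.

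Hey2 carried the largest difference of the members. Its brighter probe had intensities of 1202 and 1050 in embryonic CMs, of 101.1, 120.6 and 112.2 in hypertrophic ACMs and of 100.5, 113.0 and 102.2 in normal ACMs. It was above background on all 8 arrays, but all 6 adult arrays were within a narrow low range, and the embryonic arrays were far above them. The log2 difference from normal ACMs was 4.20 (SE 0.21, adjusted p = 8.82e-07 from limma) and the difference from hypertrophic ACMs was 3.88 (SE 0.21, adjusted p = 1.91e-06 from limma). The second Hey2 probe had intensities of 670.2 and 561.4 in embryonic CMs, of 92.4, 98.2 and 102.8 in hypertrophic ACMs and of 99.8, 101.2 and 86.8 in normal ACMs. It was above background on 1 of 3 arrays in each adult group. In a limma fit of all 13494 kept probes, its log2 difference from normal ACMs was 3.63 (SE 0.25), which passed, so both probes of the gene moved alike.

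Hey1, a paralogue of Hey2 and a common readout of Notch activity in endothelium, was above background on every array. Its intensity was 1892 and 1100 in embryonic CMs, 235.2, 375.3 and 234.4 in hypertrophic ACMs and 129.8, 247.1 and 200.6 in normal ACMs. The lowest embryonic array was well above the highest adult array, and the adult groups overlapped. The log2 difference of embryonic CMs was 2.50 from normal ACMs (SE 0.42, adjusted p = 0.000986 from limma) and 1.74 from hypertrophic ACMs (SE 0.42, adjusted p = 0.00849 from limma). Without the first embryonic array the difference from hypertrophic ACMs was 1.50, with an adjusted p of 0.0693 from limma.

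Notch4, the receptor known mainly from endothelium, had intensities of 1241 and 952.3 in embryonic CMs, of 226.7, 395.2 and 375.7 in hypertrophic ACMs and of 157.6, 233.2 and 233.5 in normal ACMs at its brighter probe. The embryonic arrays were above all adult arrays, and 2 of the 3 hypertrophic arrays were above all normal ACM arrays. The log2 difference of embryonic CMs was 1.76 from normal ACMs (SE 0.33, adjusted p = 0.00174 from limma) and 0.98 from hypertrophic ACMs (SE 0.33, adjusted p = 0.0362 from limma). The difference from hypertrophic ACMs did not pass without either embryonic array or without hypertrophic ACM replicate 1 or 3, with adjusted p-values of 0.0554 to 0.147 from limma. The second Notch4 probe was dim, with 134.4 and 119.6 in embryonic CMs, 86.0, 122.7 and 97.9 in hypertrophic ACMs and 80.6, 90.8 and 99.0 in normal ACMs. No normal ACM array had it above background, and its log2 difference between embryonic CMs and normal ACMs, 0.70 (SE 0.37, adjusted p = 0.156 from limma over all kept probes), did not pass.

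Notch1, the receptor most studied in cardiac trabeculation, had intensities of 284.5 and 242.9 in embryonic CMs, of 110.6, 107.7 and 96.5 in hypertrophic ACMs and of 90.1, 105.3 and 111.8 in normal ACMs. In each adult group 2 of 3 arrays were above background, and the adult groups overlapped over nearly their whole range. The log2 difference of embryonic CMs was 1.71 from normal ACMs (SE 0.41, adjusted p = 0.00723 from limma) and 1.59 from hypertrophic ACMs (SE 0.41, adjusted p = 0.0118 from limma). The difference from hypertrophic ACMs had an adjusted p of 0.0546 without the first and 0.0524 without the second embryonic array, from limma.

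Notch3, the receptor of vascular smooth muscle and pericytes, had intensities of 424.1 and 361.2 in embryonic CMs, of 140.3, 226.7 and 169.8 in hypertrophic ACMs and of 101.9, 154.6 and 146.7 in normal ACMs. On the normalized log2 scale it stood at 7.48 and 7.47 in embryonic CMs, at 6.62, 7.56 and 6.84 in hypertrophic ACMs and at 5.16, 6.54 and 6.80 in normal ACMs. Hypertrophic ACM replicate 2 thus lay above both embryonic arrays after normalization, and normal ACM replicate 1 lay well below the other arrays. The log2 difference between embryonic CMs and normal ACMs was 1.31 (SE 0.46, adjusted p = 0.0396 from limma). It was 0.80 without normal ACM replicate 1, with an adjusted p of 0.0569 from limma, and its adjusted p was 0.132 and 0.134 without the first and the second embryonic array and 0.0557 without hypertrophic ACM replicate 3. The difference between embryonic CMs and hypertrophic ACMs was 0.47 (SE 0.46, adjusted p = 0.452 from limma).

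Hes1, a repressor of the Hes family with a role in many tissues, was above background on every array. Its intensity was 943.8 and 502.4 in embryonic CMs, 373.2, 368.6 and 389.2 in hypertrophic ACMs and 336.5, 367.6 and 251.9 in normal ACMs. The embryonic intensities were thus above all adult ones before normalization, but the 2 embryonic arrays were far from each other. After quantile normalization it stood at 8.87 and 8.08 in embryonic CMs, at 8.72, 8.50 and 8.53 in hypertrophic ACMs and at 8.54, 8.39 and 8.16 in normal ACMs, and the groups overlapped. The log2 difference between embryonic CMs and normal ACMs was 0.11 (SE 0.24, 95% interval -0.44 to 0.66, adjusted p = 0.732 from limma). With arrays scaled to a common median in place of quantile normalization, it was 0.99 (adjusted p = 0.0140 from limma), in which the median of all genes also moved by 0.52, so that Hes1 stood 0.47 above that median. The Hes1 result therefore depended on the scaling. The direction of Hes1 between embryonic CMs and hypertrophic ACMs did as well, at -0.10 with quantile normalization and 0.67 with the common median.

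The remaining members were close to background. Heyl, the third Hey family gene, known from vascular smooth muscle, had normalized log2 intensities of 5.002 and 5.053 in embryonic CMs, of 4.39, 5.59 and 4.77 in hypertrophic ACMs and of 4.35, 4.57 and 4.43 in normal ACMs. It was below background on all normal ACM arrays. The log2 difference of embryonic CMs from them was 0.58 (SE 0.31, 95% interval -0.11 to 1.27, adjusted p = 0.150 from limma) and did not pass. A lower bound on the fold, taken from the group means alone, was 1.10. Such a bound leaves out the spread among arrays, so it does not show that Heyl was higher. For this bound, each normal ACM array was given its lowest signal above background, or the probe's own signal where that was higher, and the brighter group's mean was divided by the average of these. Jag1 had intensities of 105.6 and 109.5 in embryonic CMs, 97.1, 100.4 and 97.3 in hypertrophic ACMs and 90.1, 92.5 and 96.7 in normal ACMs. Dll4, a ligand of arterial and sprouting endothelium, had intensities of 106.7 and 105.7 in embryonic CMs, 83.4, 97.1 and 91.6 in hypertrophic ACMs and 94.9, 97.0 and 96.9 in normal ACMs. The embryonic values of both ligands were above those of normal ACMs, but only the embryonic ones and 1 hypertrophic Jag1 value were above background. The log2 differences were 0.28 (95% interval -0.12 to 0.68) for Jag1 and 0.11 (95% interval -0.24 to 0.45) for Dll4, with adjusted p-values of 0.227 and 0.605 from limma.

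**Figure D2:**
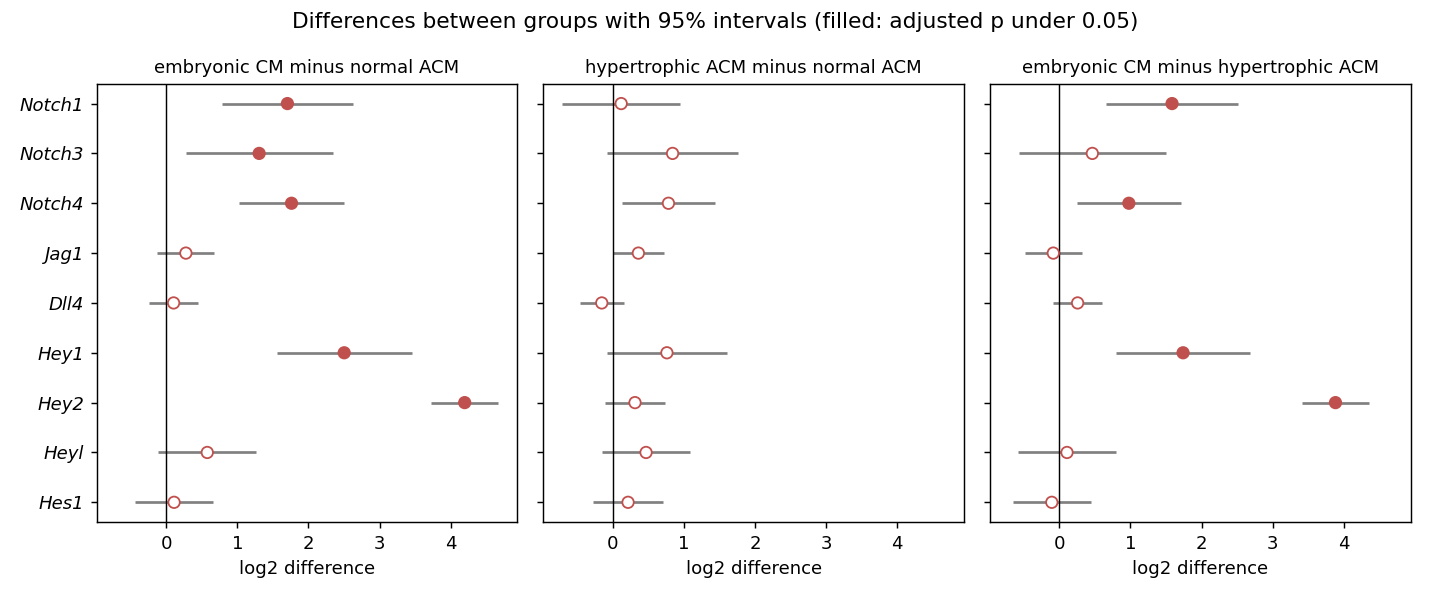
Log2 difference (horizontal axis) with its 95% interval for each of the 9 kept members in the 3 comparisons, where filled points passed at an adjusted p under 0.05. Hey2 stands farthest to the right in both embryonic comparisons, at 4.20 and 3.88, and no member passed between hypertrophic and normal ACMs.

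Between hypertrophic and normal ACMs, 0 of the 9 members passed the test by limma, where 3.84% of all genes tested were higher and 1.83% lower. Notch4 and Jag1 were the 2 members with an unadjusted p under 0.05. Notch4 was higher by 0.78 on the log2 scale (SE 0.29, 95% interval 0.13 to 1.44, adjusted p = 0.166 from limma) and Jag1 by 0.36 (SE 0.16, 95% interval 0.0034 to 0.72, adjusted p = 0.236 from limma). Jag1 was above background on 1 hypertrophic array and on no normal ACM array. The median over the 9 members was 0.36, and over all genes tested it was -0.02.

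Notch3 and Hey1 had estimates of about the size of that of Notch4, and for each of these 3 genes the hypertrophic and normal arrays overlapped. Notch3 stood at 0.84 (95% interval -0.08 to 1.77, adjusted p = 0.283) and Hey1 at 0.76 (95% interval -0.08 to 1.61, adjusted p = 0.289), both from limma. Without normal ACM replicate 1, the estimates were 0.34 for Notch3, 0.34 for Hey1 and 0.52 for Notch4. Hey2 differed by 0.31 (95% interval -0.11 to 0.74), Heyl by 0.47 (-0.15 to 1.09), Hes1 by 0.22 (-0.28 to 0.71), Notch1 by 0.12 (-0.71 to 0.95) and Dll4 by -0.15 (-0.47 to 0.16). Jag1 was higher on every hypertrophic than on every normal ACM array and Dll4 lower, so that 2 of 9 members did not overlap, as 25.3% of all genes tested did not. Dll4 was below background on all 6 of these arrays. The intervals of Notch3, Notch4, Hey1 and Heyl left room for a change of over 2-fold. Hey2 was close to background in both adult groups, where the processing compresses differences, so its interval does not bound its change.

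The direct comparison of embryonic CMs with hypertrophic ACMs is also the test of whether their differences from normal ACMs were unequal, since the normal ACMs cancel. In it 4 of 9 members passed, Hey2, Hey1, Notch1 and Notch4, all higher in embryonic CMs, with 23.8% of all genes tested higher at that threshold. Notch3, Heyl, Jag1, Dll4 and Hes1 did not pass, with log2 differences of 0.47, 0.11, -0.08, 0.26 and -0.10. The comparisons with normal ACMs share these 3 arrays, so their estimates for a member are not independent. Counted by probe in the fit of all kept probes, 6 of 11 were higher in embryonic CMs than in normal ACMs, where 23.7% of all kept probes were. Against hypertrophic ACMs 5 of 11 were higher, where 21.2% of all kept probes were. Between hypertrophic and normal ACMs 0 of 11 passed, where 4.42% of all kept probes did in either direction.

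The preparations also differed in markers of cells in which Notch genes are known to be active. The summed normalized level of 16 kept endothelial markers was 10244 to 12578 in embryonic CMs, 5297 to 7923 in hypertrophic ACMs and 3766 to 6575 in normal ACMs. Of these 16 genes, 11 were higher and 2 lower in embryonic CMs than in normal ACMs, and 2 were higher in hypertrophic than in normal ACMs. Of all genes tested, 26.2% were higher and 22.7% lower in embryonic CMs, and 3.84% higher in hypertrophic ACMs. The 5 kept arterial markers were all higher in embryonic CMs than in normal ACMs, and summed to 2660 to 2941 in embryonic CMs, 327.1 to 377.6 in hypertrophic ACMs and 177.4 to 251.2 in normal ACMs. The gap junction gene Gja5, which atrial and trabecular cardiomyocytes also use, made up at least 83.0% of that sum on each embryonic array. The other 4 arterial markers summed to 381.1 to 451.7 in embryonic CMs, 225.5 to 277.0 in hypertrophic ACMs and 120.9 to 166.7 in normal ACMs. In bulk RNA, fewer cells of a type and less RNA per cell cannot be told apart.

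Array by array, Notch4 had an order similar to that of the endothelial markers, which markers of several other cells shared in part. Their mean normalized log2 intensity was 8.74 and 8.53 in embryonic CMs, 7.59, 8.21 and 7.98 in hypertrophic ACMs and 6.78, 7.62 and 7.84 in normal ACMs. Notch4 was at 9.33 and 9.21 in embryonic CMs, at 7.78, 8.62 and 8.47 in hypertrophic ACMs and at 6.99, 7.52 and 8.01 in normal ACMs. In both measures normal ACM replicate 1 was the lowest array, hypertrophic ACM replicate 2 the highest adult array and embryonic replicate 1 the highest of all. Notch3 and Hey1 were also lowest on normal ACM replicate 1 and, among adult arrays, highest on hypertrophic ACM replicate 2. The means of the arterial, fibroblast, epicardial, and smooth muscle and pericyte markers had the same lowest and highest adult arrays. On these 2 arrays the fibroblast mean was 5.89 and 8.28, and the smooth muscle and pericyte mean 5.58 and 6.86. The cardiomyocyte, endocardial, leukocyte and erythroid means did not share both. This pattern was therefore not particular to endothelial markers. Hey2 varied between 4.94 and 5.67 over the 6 adult arrays, while the endothelial mean varied between 6.78 and 8.21. Among adult arrays Hey2 was also highest on hypertrophic ACM replicate 2, but lowest on normal ACM replicate 3. Its adult intensities, 100.5 to 120.6, were close to background, where the processing compresses differences, so the 2 ranges cannot be compared in width. The part of these markers in the Notch results was not tested.

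**Figure D3:**
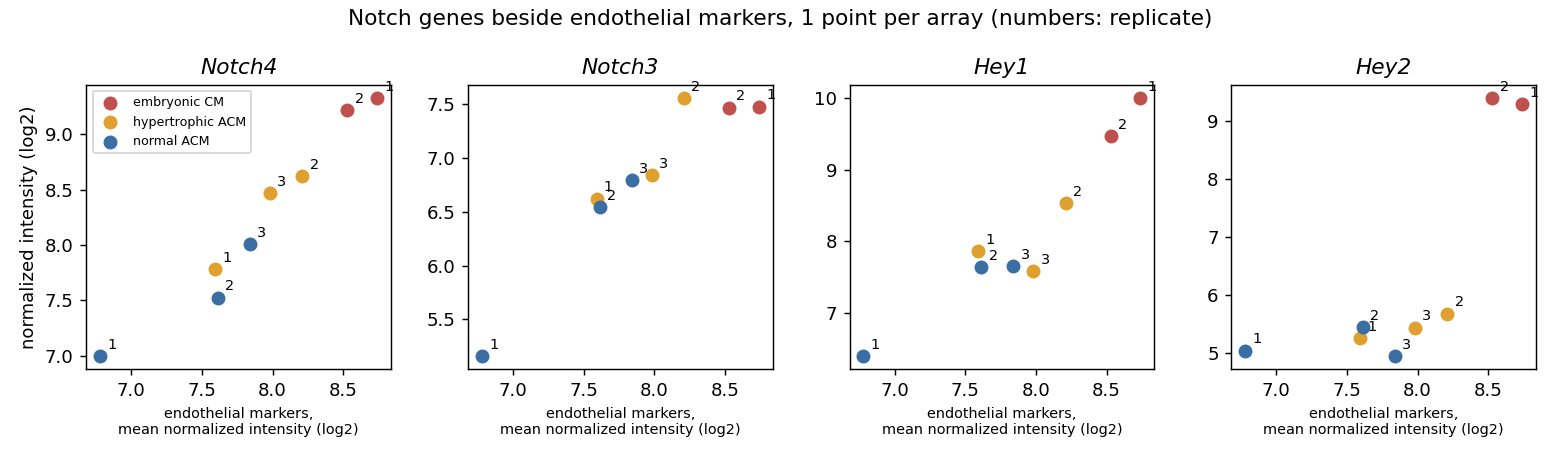
Normalized log2 intensity of Notch4, Notch3, Hey1 and Hey2 (vertical axes) against the mean normalized log2 intensity of 16 endothelial markers (horizontal axes), with 1 point per array and its replicate number. Normal ACM replicate 1 lies lowest on the endothelial axis, at 6.78, and the embryonic arrays lie highest, at 8.53 and 8.74.

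Markers of other cells moved as well. Beside their counts, 26.2% of all genes tested were higher and 22.7% lower in embryonic CMs than in normal ACMs. In hypertrophic ACMs these shares were 3.84% and 1.83%. Of 12 kept fibroblast markers, 9 were higher and 1 lower in embryonic CMs than in normal ACMs, and 9 were higher and 0 lower in hypertrophic than in normal ACMs. Their summed level was 5876 to 6577 in embryonic CMs, 6592 to 10526 in hypertrophic ACMs and 2042 to 3562 in normal ACMs. The 11 kept markers of smooth muscle and pericytes, the cells best known for Notch3 and Heyl, summed to 2476 to 2548 in embryonic CMs, 1185 to 1711 in hypertrophic ACMs and 1243 to 1669 in normal ACMs. Of these, 2 were higher and 3 lower in embryonic CMs than in normal ACMs, close to the shares of all genes tested. The adhesion molecule Mcam, which endothelium also expresses, made up at least 72.5% of the sum on each embryonic array. Without it the order turned, and the other 10 markers summed to 598.5 to 700.1 in embryonic CMs, 1050 to 1446 in hypertrophic ACMs and 1187 to 1590 in normal ACMs. Both Gja5 and Mcam were named after their values were seen. Of 5 kept endocardial markers 2 were higher and of 8 kept epicardial markers 5 were higher in embryonic CMs than in normal ACMs. The endocardial markers summed to 547.6 to 774.7 in embryonic CMs, 414.7 to 605.7 in hypertrophic ACMs and 401.8 to 503.1 in normal ACMs. Of 11 cardiomyocyte markers 7 were lower in embryonic CMs than in normal ACMs and 4 did not pass. For these, age and the share of cardiomyocytes cannot be told apart. The 5 kept erythroid markers were all higher in embryonic CMs, with sums of 34520 to 34833 in embryonic CMs, 186.5 to 3450 in hypertrophic ACMs and 205.5 to 1356 in normal ACMs. The globin gene Hba-a1, named after its values were seen, made up most of the embryonic sums, at 15.02 and 15.01 on the normalized log2 scale. Slc4a1 was kept only through the 2 embryonic arrays and Alas2 through these and 1 hypertrophic array, so the filter favoured their being higher. Of 8 kept leukocyte markers 0 passed in either comparison with normal ACMs. Their part in the Notch results was not tested either.

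The rest of the pathway was read from 70 further genes, of which 60 were on the array and 44 had a kept probe. Embryonic CMs were higher than normal ACMs for 18 and lower for 5 of the 44, and hypertrophic ACMs were higher than normal ACMs for 2 and lower for 1. The shares of all genes tested, in these directions, were 26.2% and 22.7% for embryonic CMs and 3.84% and 1.83% for hypertrophic ACMs. Without the second embryonic array, 12 were higher and 3 lower of 43 in the embryonic comparison. The 3 probes of Rbpj itself were below background on all 8 arrays.

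Among 6 other ligands, 3 were higher in embryonic CMs than in normal ACMs. Dlk1, a non-canonical ligand best known from fetal tissues, had a fold of at least 26.7 (log2 difference 5.06, SE 0.21), with intensities of 1477 and 1231 in embryonic CMs against 98.5, 93.1 and 97.3 in normal ACMs. Mfap2 and Mfap5 encode microfibril proteins that can bind Notch and ligands and are also made by fibroblasts. The brightest Mfap2 probe was below background on all normal ACM arrays, with a lower bound on the fold of 26.4 for embryonic CMs and of 3.40 for hypertrophic ACMs. Another Mfap2 probe was above background on 1 normal ACM array. Mfap5 had intensities of 443.0 and 273.6 in embryonic CMs, 654.7, 1304 and 1328 in hypertrophic ACMs and 99.9, 131.4 and 109.4 in normal ACMs. Its log2 difference from normal ACMs was 1.73 (SE 0.37) in embryonic CMs and 4.67 (SE 0.33) in hypertrophic ACMs, and it was the ligand-list gene that stood higher in hypertrophic ACMs than in embryonic CMs, by a log2 difference of -2.95 (SE 0.37) of embryonic CMs. Mfap2 and Mfap5 were the 2 pathway genes that rose in hypertrophic ACMs.

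Of 7 genes for ligand uptake and for sugars on the receptor, 3 were higher and 1 lower in embryonic CMs than in normal ACMs. The Fringe glycosyltransferase Mfng stood at 1.54 (SE 0.31), the ubiquitin ligase Mib1, which drives ligand endocytosis, at 0.77 (SE 0.20), the O-glucosyltransferase Poglut1 at 0.77 (SE 0.21) and the ubiquitin ligase Neurl1a at -0.90 (SE 0.24), as log2 differences. Of 7 proteases, 1 was higher and 2 lower. These were the gamma-secretase subunits Ncstn at 0.59 (SE 0.21) and Psen2 at -1.09 (SE 0.19) and the receptor sheddase Adam17 at -0.78 (SE 0.20).

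Of 10 genes of the RBPJ complex, its coactivators and its corepressors, 4 were higher and 1 lower. The histone deacetylases Hdac1 and Hdac2 stood at 1.22 (SE 0.28) and 0.92 (SE 0.16), the corepressor Tle4 at 0.78 (SE 0.25) and the acetyltransferase Kat2b, a coactivator, at -1.31 (SE 0.19). Of 8 inhibitors and turnover genes, 4 were higher and 1 lower. Fbxw7, which marks the cut Notch domain for degradation, had intensities of 274.0 and 246.7 in embryonic CMs against 574.1, 877.5 and 579.6 in normal ACMs, and fell by 2.88 on the log2 scale (SE 0.19). Dtx2 and Dtx3, of the Deltex ubiquitin ligase family, stood at 1.70 (SE 0.19) and 1.55 (SE 0.18), and the ubiquitin ligase Nedd4 at 1.17 (SE 0.21).

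Nrarp, a Notch target that feeds back on the pathway, stood at 2.10 (SE 0.46, adjusted p = 0.00444 from limma), but was named after its values were seen. Of 6 other targets, 3 were higher in embryonic CMs. The cyclin Ccnd1 stood at 2.34 (SE 0.36), the arterial ephrin Efnb2 was at least 1.70-fold higher, and smooth muscle actin Acta2, which fetal cardiomyocytes also use, stood at 1.48 (SE 0.26). Acta2 was the pathway gene that fell in hypertrophic ACMs, with intensities of 3209, 3985 and 5935 in hypertrophic ACMs against 13265, 7785 and 8267 in normal ACMs and a change of -1.12 on the log2 scale (SE 0.23, limma's adjusted p = 0.0264).

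Against hypertrophic ACMs, 18 of the 44 pathway genes were higher and 5 lower in embryonic CMs, where 23.8% of all genes tested were higher and 19.7% lower. Genes that had also passed against normal ACMs stood at log2 differences of 5.12 (SE 0.21) for Dlk1, 2.96 (SE 0.18) for Mfap2, 1.48 (SE 0.31) for Mfng, 1.53 (SE 0.19) for Dtx2 and -2.41 (SE 0.19) for Fbxw7. Acta2, which was lower in hypertrophic than in normal ACMs, stood at 2.60 (SE 0.26). The coactivator Ep300, a histone acetyltransferase, passed here with 1.07 (SE 0.26), as did the Fringe gene Rfng with -0.73 (SE 0.22), the receptor-processing protease Furin with -0.46 (SE 0.16) and Hes6 with 0.58 (SE 0.18), none of which passed against normal ACMs. Nrarp did not pass, at 1.09 (SE 0.46, adjusted p = 0.0853 from limma).

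**Figure D4:**
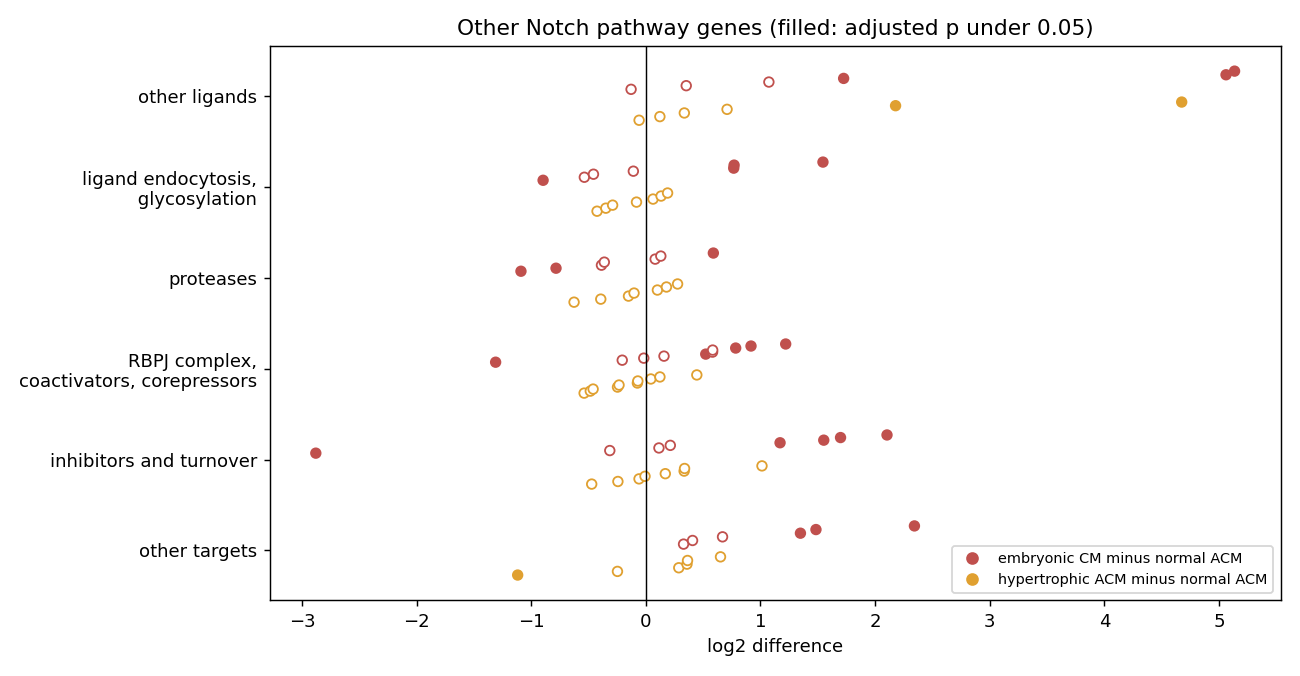
Log2 difference from normal ACMs (horizontal axis) of 44 other Notch pathway genes, by their role, for embryonic CMs and for hypertrophic ACMs, where filled points passed at an adjusted p under 0.05. Dlk1 and Mfap2 stand farthest to the right for embryonic CMs, Fbxw7 farthest to the left at -2.88, and Mfap5 and Mfap2 are the filled points on the right for hypertrophic ACMs.

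For each member that passed a test, the gene with the nearest pattern was sought as the highest Pearson correlation of normalized log2 intensity over the 8 arrays. These were Ccdc120 for Hey2 (r = 0.998), Ifitm2 for Notch4 (r = 0.993), Hic1 for Hey1 (r = 0.985), the endothelial transcription factor Sox18 for Notch3 (r = 0.978) and Arid3b for Notch1 (r = 0.965). Among the members, Hey1 and Notch4 had r = 0.928, Notch3 and Notch4 r = 0.896, and Hes1 stayed between -0.27 and 0.21 with every other member. All such values describe 8 arrays that share 3 groups, and a gene that separates embryonic from adult arrays correlates with every other such gene.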

How the data were processed

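RNA of embryonic CMs (2 arrays), hypertrophic ACMs (3) and normal ACMs (3) was hybridized to Illumina MouseRef-8 BeadChips. For each probe the authors deposited a linear bead intensity from GenomeStudio that had not been normalized, and a detection p-value that rates it against that array's negative-control beads. A second table deposited by the authors held background-subtracted, quantile-normalized intensity values. GenomeStudio is given as version 2011 in the submitters' processing notes and as another version in the series text.

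Probes were named by GEO's platform annotation, with 23978 of 25697 carrying 1 gene symbol and 1719 none. The function neqc of limma 3.58.1 (R 4.3.3) estimated background from the detection p-values, used an offset of 16, and brought the log2 values of all arrays to common quantiles. The offset compresses differences of dim probes. Kept probes had a detection p under 0.05 on 2 or more of the 8 arrays, and the brightest kept probe stood for each of 9803 genes. The 3 groups entered 1 fit (lmFit, contrasts.fit, eBayes), with Benjamini-Hochberg adjustment over all genes of a comparison and a threshold of 0.05. All adjusted p-values in the text are from limma. The steps from normalization to fit were tested on simulated data with known changes in a limited number of bright genes, above background on every array. Changes in dim probes, and changes in as many genes as differed between embryonic and adult arrays, were not simulated. Sequences were read from the RefSeq promoter table of GRCm38.p6. Sequence searches used Python 3.11.15 and pandas 2.3.3, and plots used matplotlib 3.10.9.

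The members, the pathway lists and the marker lists were chosen with earlier results of these data known. The text names all members, up to 4 genes past the threshold of each pathway list with the smallest p, and the gene nearest in pattern to each member that passed. Alternatives were other background corrections and scalings, the authors' normalized table, other filters, the mean of probes, fits of only the groups compared, a variance trend, array weights, the replicate number as a block, a stricter threshold and leaving out each array. No chip effect was modelled, because which array lay on which chip was not given in the sources used here. With so few arrays, precision is limited by their number.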

Additional observations from a re-analysis of the deposited data

How the results depend on the processing

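The count of members that passed was 0 between hypertrophic and normal ACMs under every alternative run. Between embryonic CMs and normal ACMs it was 4 to 7, and 4 to 6 when 1 array was left out. Hey2, Hey1, Notch4 and Notch1 passed in that comparison under every alternative run, but the size of the difference depended on the processing. Over the alternatives the log2 difference was 2.63 to 5.02 for Hey2 and 2.00 to 3.33 for Hey1. It was 1.23 to 2.62 for Notch4, 0.71 to 2.42 for Notch1 and 0.70 to 2.20 for Notch3. Between embryonic CMs and hypertrophic ACMs the 4 members became 2 at an adjusted p under 0.01, and 1 to 4 when 1 array was left out, with 1 and 2 without the first and the second embryonic array. The 5 probes of that comparison became 3 at an adjusted p under 0.01 and 2 to 5 when 1 array was left out. The 23 other pathway genes that passed between embryonic CMs and normal ACMs were 15 to 24 when 1 array was left out, 15 being the count without the second embryonic array. Under the alternatives other than leaving out an array, up to 6 members and up to 7 probes passed between embryonic CMs and hypertrophic ACMs. The cause of these changes was not tested, beyond the loss of an array.

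Notch3 between embryonic CMs and normal ACMs lost its call with the authors' normalized table (adjusted p = 0.131 from limma), with no filter (0.0926) and in a fit of those 2 groups only (0.0594), and its adjusted p ranged from 0.000700 to 0.134 over all alternatives. Notch4 between embryonic CMs and hypertrophic ACMs lost its call with the authors' table (0.0944), with no filter (0.0737) and with the mean of both probes (0.191). Scaling to a common median moved the median of all genes by 0.52 between embryonic CMs and normal ACMs and by 0.48 between embryonic CMs and hypertrophic ACMs. Relative to that median, Heyl then stood 0.28 higher (adjusted p of the unshifted difference 0.0231) in embryonic CMs than in normal ACMs and Notch3 0.84 higher (0.0219) in embryonic CMs than in hypertrophic ACMs, and both passed. The scaling without background correction, chosen after the data were seen, gave Hes1 a log2 difference of 1.01 between embryonic CMs and normal ACMs and 0.73 between embryonic CMs and hypertrophic ACMs. Heyl also passed in the fit of 2 groups only (0.0325) and without hypertrophic ACM replicate 2 (0.0297).

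Directions turned only for differences that had not passed in the main fit. Between embryonic CMs and hypertrophic ACMs, Hes1 was 0.67 with the common median and 0.73 with the common median and no background correction, and Heyl was -0.28 in the authors' table. The lowest adjusted p of Hes1 in that comparison over all alternatives was 0.0447 from limma, so its call also depended on the processing. Between hypertrophic and normal ACMs, Notch1 was -0.045 with array weights. When 1 array was left out, the ranges that crossed 0 were -0.29 to 0.51 for Hes1 between embryonic CMs and normal ACMs, -0.51 to 0.29 for Hes1, -0.16 to 0.037 for Jag1 and -0.15 to 0.46 for Heyl between embryonic CMs and hypertrophic ACMs, and -0.23 to 0.46 for Notch1 between hypertrophic and normal ACMs. In the authors' table, values at its floor gave no difference for dim ligands.

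The labels number the replicates, but same-numbered arrays did not deviate together, with correlations of 0.13, 0.04 and -0.04 for hypertrophic and normal ACMs. With the replicate number as a block, 5, 0 and 4 members passed in the 3 comparisons, and no member's call changed.

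Signal over background limits what can be said of Notch2, Dll4, Jag1, Heyl and Rbpj, whose probes were at or near it in adult cells. Hey2 and Notch1 were also close to background in adult cells, so the size of their folds is uncertain.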
